A study of Homo sapiens with 9 samples.

Results

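METRNL and METRN are the 2 members of the meteorin gene pair among the 25680 gene symbols counted in SKNO-1 cells. METRNL was chosen because of an earlier look at these counts, in which the sample number was taken into account. It was among the 13 genes whose difference from control had an adjusted p under 0.05 with each shRNA against ASXL2. METRN was added as its paralogue. The METRNL differences from control are therefore a description with no test. The larger of its adjusted p values was 0.0428 with edgeR's quasi-likelihood test and Benjamini-Hochberg adjustment; the genes just inside the limit were DST (0.0453) and TFR2 (0.0469), those just outside were AMICA1 (0.0587) and C5orf15 (0.0605), and METRN stood at 0.684. Each symbol had 1 RefSeq row in the files, and both genes passed the filter on low counts that left 14199 genes.

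The data were RNA-seq counts from 9 samples of SKNO-1, a human acute myeloid leukaemia line that carries the AML1-ETO fusion (AML-ETO in the labels). There were 3 samples each of shControl (EV in the labels, an abbreviation they do not spell out, where the study describes a control shRNA), of shASXL2-2 and of shASXL2-3, which express different shRNAs against ASXL2. The samples of every group bear the numbers 1, 13 and 25, whose meaning the labels do not give. The study cultured the line with GM-CSF; the protocol in the labels speaks of flow-sorted marrow cells instead, which does not match the labelled line. All samples come from 1 cell line, so the values describe that line.

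With 1 row per gene the libraries held 27714431 to 35406063 counts, so that 3 counts, taken as the floor, were worth 0.0847 to 0.108 CPM, the unit used below for counts relative to library size. ASXL2 was at 67.9, 67.9 and 74.7 CPM in shControl, at 30.4, 36.2 and 36.2 CPM in shASXL2-2 and at 26.9, 29.1 and 41.1 CPM in shASXL2-3 (numbers 1, 13 and 25), and every knockdown sample lay under every control. Of the markers of the line, MPO (8254 CPM), KIT (356 CPM), ANPEP (248 CPM), RUNX1T1 (129 CPM), CD33 (94.0 CPM) and POU4F1 (3.50 CPM) were measured in shControl, while the stem-cell marker CD34 reached at most 10 counts in a sample. Over all samples, the 6 markers of other cell types summed to 1.78 to 4.19 CPM, with CD3E and MS4A1 at 0, EPCAM at no more than 1 count, COL1A1 at no more than 5 and ALB at no more than 6; PECAM1, which some leukocytes also express, made up most of the sum. In bulk samples such as these, fewer cells with a transcript and less of it per cell cannot be told apart.

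Meteorin (METRN) was first described as a secreted factor of the nervous system that acts on glia and on the growth of axons. Meteorin-like (METRNL, also called subfatin) is a secreted protein made by exercised muscle, fat, activated macrophages and barrier tissues. In mice it promotes browning of fat through type 2 cytokines and alternatively activated macrophages, and the receptor tyrosine kinase KIT has been described as a receptor for it on endothelial cells. KIT is also a receptor of haematopoietic progenitors and is often mutated in leukaemias with AML1-ETO.

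The METRNL gene (RefSeq NM_001004431) is protein-coding and occupies bases 81037485 to 81052867 of chromosome 17, plus strand, in GRCh37, the build of the files (hg19). The METRN gene (NM_024042) is protein-coding and occupies bases 765118 to 769655 of chromosome 16, also plus strand. In the annotation used (GENCODE, GRCh37) each canonical transcript has 4 exons. Those of METRNL measure 377, 386, 60 and 867 nt, for a transcript of 1690 nt with a coding part of 933 nt and a GC content of 65.0%. Those of METRN measure 276, 401, 60 and 2585 nt, for 3322 nt with a coding part of 879 nt and a GC content of 66.7%. The third exon has the same length in both genes. Of 852 aligned coding bases 551 (64.7%) were identical, and the longest exact stretch that the transcripts shared was 16 nt. Such a stretch is much shorter than the reads the study describes, so a read of one gene could not match the other exactly.

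The 250 bases before each annotated transcript start are shown because they are where the paralogues can be set side by side at the level of DNA; they were read from the GRCh37 genome on the plus strand, 5′ to 3′, and capitals mark every match to a motif in the next paragraph, on either strand. The METRNL window is chr17:81037235-81037484 and the METRN window is chr16:764868-765117.
METRNL: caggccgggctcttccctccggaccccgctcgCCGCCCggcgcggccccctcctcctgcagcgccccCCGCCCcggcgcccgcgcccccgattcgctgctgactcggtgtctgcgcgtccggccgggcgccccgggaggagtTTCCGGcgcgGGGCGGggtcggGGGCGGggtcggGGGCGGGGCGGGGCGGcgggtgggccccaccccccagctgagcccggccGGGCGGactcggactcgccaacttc
METRN: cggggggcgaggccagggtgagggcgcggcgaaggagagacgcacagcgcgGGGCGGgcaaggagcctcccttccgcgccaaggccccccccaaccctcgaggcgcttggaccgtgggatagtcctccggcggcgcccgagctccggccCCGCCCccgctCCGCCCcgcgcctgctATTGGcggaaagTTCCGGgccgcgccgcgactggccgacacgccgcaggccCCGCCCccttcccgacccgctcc

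Both windows were richer in G and C than most. The METRNL window had 83.2% GC and 39 CpG, the METRN window 78.4% and 36, against medians of 63.2% and 18 over 19862 promoters of protein-coding genes cut in the same way. The GC box GGGCGG matched 8 times before METRNL, some matches overlapping, and 4 times before METRN; 59.2% of all promoters held at least 1. The ETS core CCGGAA matched once in each, at 108 to 103 bases before the start of METRNL and at 62 to 57 before that of METRN; 19.4% of all promoters held it. CCAAT matched once before METRN, at 74 to 70 bases, and not before METRNL (34.3% of promoters). The RUNX core TGTGGT (8.81%), the AP-1 core TGANTCA (4.7%), the E-box CACGTG (7.88%) and TATAAA (9.26%) matched in neither window. A match is a description of the letters and not of binding, and these files hold no measure of binding.

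METRNL was counted 383, 241 and 245 times in shControl numbers 1, 13 and 25. The counts were 547, 361 and 382 in shASXL2-2, and 749, 444 and 494 in shASXL2-3. Scaled to CPM with TMM library sizes, the shControl samples were at 10.5, 8.20 and 8.17 CPM (8.97 ± 1.36, SD, n = 3). The knockdown samples were all higher, and within each number the order was shControl, shASXL2-2, shASXL2-3. In shASXL2-2 the values were 18.3, 11.3 and 13.2 CPM (14.3 ± 3.62, SD, n = 3), and in shASXL2-3 they were 25.5, 13.7 and 18.0 CPM (19.1 ± 5.97, SD, n = 3). The lowest knockdown sample, shASXL2-2 number 13 at 11.3 CPM, lay just above the highest control, number 1 at 10.5 CPM, while the knockdown groups overlapped each other.

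Against the control of the same number, METRNL in shASXL2-2 was 1.74, 1.38 and 1.62 times as high, and in shASXL2-3 it was 2.42, 1.67 and 2.20 times as high. It was above its control in all 6 pairs, as were 11.6% of tested genes; METRNL was chosen on this contrast and the count supports nothing further. The smallest ratio with either shRNA was at number 13 and the largest at number 1. The knockdown groups share their control samples, so these ratios are not separate evidence.

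**Figure D1:**
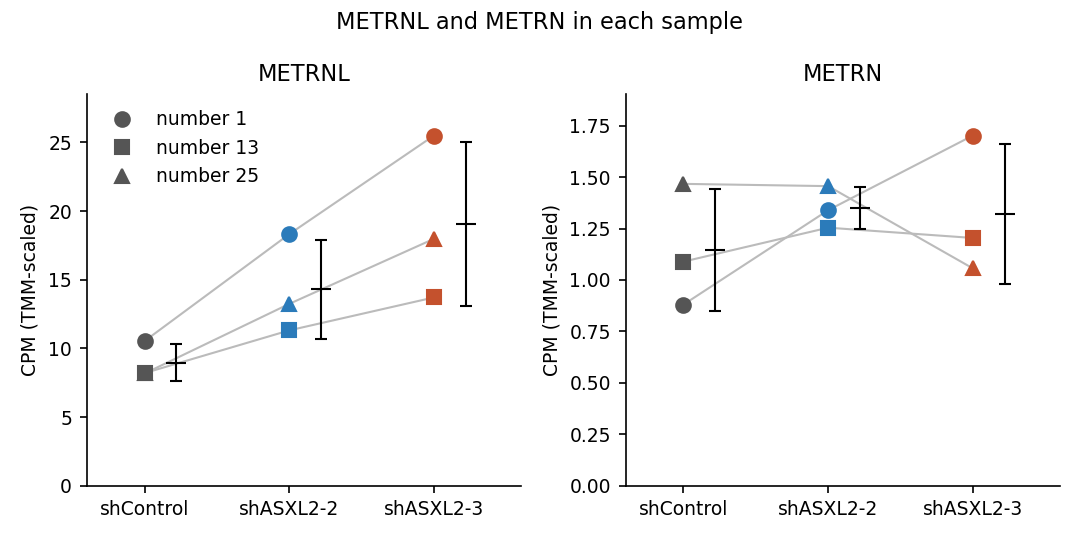
METRNL (left) and METRN (right) in each of the 9 SKNO-1 samples, in CPM with TMM library sizes on axes that start at 0; symbols mark the sample numbers, grey lines join samples of the same number, and bars show the mean and SD of each group (n = 3). All 3 METRNL lines climb from shControl to shASXL2-3, from 8.17 to 10.5 CPM in control to 13.7 to 25.5 CPM, while the METRN lines cross.

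The fitted log2 fold change of METRNL was 0.67 (SE 0.25) for shASXL2-2, 1.09 (SE 0.25) for shASXL2-3 and 0.88 (SE 0.23) for the mean of both, given without a test. With the sample number as a block, a term that removes differences shared by samples of the same number, it was 0.66 (SE 0.11), 1.06 (SE 0.11) and 0.86 (SE 0.10). METRNL was then 136th, 59th and 55th from the highest of 14199 tested genes. Without the samples numbered 1, where METRNL was highest, the values were 0.59, 0.95 and 0.77. In the fit without the block, edgeR's quasi-likelihood test with Benjamini-Hochberg adjustment called 0 genes, 0% of those tested, in each of the 4 contrasts; 762, 723, 942 and 293 genes had an unadjusted p under 0.05 for shASXL2-2, shASXL2-3, both shRNAs and shASXL2-3 against shASXL2-2, and DESeq2 called 22, 26, 56 and 11. With the block, 0.282%, 0.416%, 1.1% and 0.106% of tested genes were called in the same order. The targeted gene ASXL2 was among those that edgeR did not call without the block. Its log2 fold changes there were -1.03, -1.12 and -1.075 for shASXL2-2, shASXL2-3 and both (adjusted p = 0.808, 0.612 and 0.178, edgeR).

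**Figure D2:**
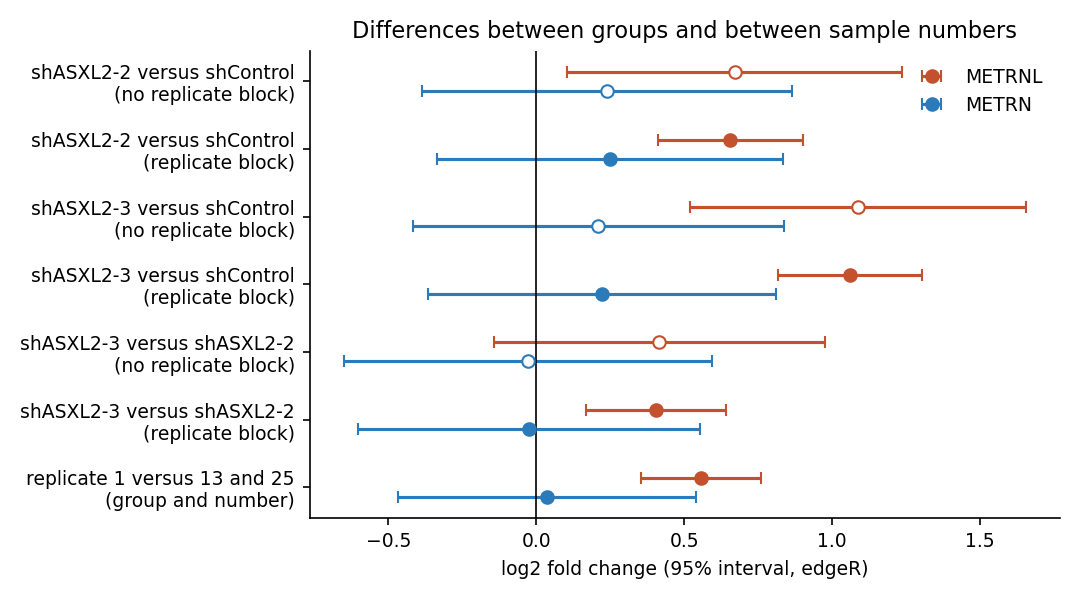
Log2 fold changes of METRNL and METRN with 95% intervals from edgeR, for each shRNA against shControl, for the shRNAs against each other and for samples numbered 1 against those numbered 13 and 25; open points are from the fit without the sample number and filled points from fits with it. The intervals of METRNL against shControl, a contrast on which it was chosen, lie above 0, and every METRN interval holds 0.

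The difference between the shRNAs was not itself the criterion for choosing METRNL and was tested. It is, however, the difference of the 2 values that were the criterion. That choice also favours genes with a small spread in the fit with the block, so p values from it are not independent of the choice. METRNL was higher in shASXL2-3 than in shASXL2-2 at each of the 3 numbers, as were 16.3% of tested genes. The log2 difference was 0.42 (SE 0.25, 95% interval -0.14 to 0.98) and did not pass (adjusted p = 0.998, edgeR's quasi-likelihood test with Benjamini-Hochberg adjustment). With the block it was 0.40 (SE 0.11, 95% interval 0.17 to 0.64), with an unadjusted p of 0.00325 and an adjusted p of 0.190 in the same edgeR test. Without the block it was 0.15 when shASXL2-3 number 1 was left out, 0.28 without shASXL2-2 number 13 and 0.63 without shASXL2-2 number 1. A higher METRNL level with shASXL2-3 was thus not established over all genes tested, and equal levels were not shown either. ASXL2 itself stood at 0.489 ± 0.0426 of the same-number control with shASXL2-2 and at 0.458 ± 0.0813 with shASXL2-3 (mean ± SD of 3 ratios).

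METRN, the neurotrophic member, was sparse. It was counted 32, 32 and 44 times in shControl, 40, 40 and 42 times in shASXL2-2, and 50, 39 and 29 times in shASXL2-3, in the order of numbers 1, 13 and 25. The exact Poisson 95% intervals of these counts ran from 19.4 to 41.7 for the lowest and from 37.1 to 65.9 for the highest, so all 9 overlapped; such intervals hold counting error alone and leave out copies made by PCR. In CPM, METRN was at 0.880, 1.09 and 1.47 in shControl (1.15 ± 0.298, SD, n = 3), at 1.34, 1.25 and 1.46 in shASXL2-2 (1.35 ± 0.101, SD, n = 3) and at 1.70, 1.20 and 1.06 in shASXL2-3 (1.32 ± 0.339, SD, n = 3). The 3 groups overlapped, with the second highest sample of all in shControl.

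Against the same-number control METRN was at 1.52, 1.15 and 0.992 in shASXL2-2 and at 1.93, 1.11 and 0.720 in shASXL2-3, so the pairs did not share a direction. The log2 fold change was 0.24 for shASXL2-2 (95% interval -0.39 to 0.86, adjusted p = 0.989), 0.21 for shASXL2-3 (-0.42 to 0.84, adjusted p = 0.981) and 0.22 for both (-0.32 to 0.77, adjusted p = 0.948), by edgeR's quasi-likelihood test with Benjamini-Hochberg adjustment. Between the shRNAs it was -0.03 (-0.65 to 0.59, adjusted p = 0.998, the same edgeR test). An exact two-sided permutation test of log2 CPM over all 84 ways to draw the 3 controls gave p = 0.286 for knockdown against control, and p = 0.370 when samples were exchanged only within numbers (27 ways, smallest possible p 0.0370). No change of METRN was detectable at this depth in these fits. The edgeR fit without the block did not call ASXL2 either, so its adjusted p values say little of METRN. The interval for both shRNAs reaches a fold change of 1.71, against a fitted 1.84 for METRNL; whether the paralogues differ in their response was not tested. Without the 3 samples numbered 1 the METRN values were 0.08, -0.18 and -0.05 for shASXL2-2, shASXL2-3 and both, so the direction of the last 2 rested on those samples. With the block METRN was at 0.25, 0.22, 0.24 and, between the shRNAs, -0.03 (adjusted p = 0.639, 0.684, 0.595 and 0.974, edgeR).

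Per length, METRNL was the more abundant of the pair in control cells, at 5.31 ± 0.803 CPM per kb of transcript against 0.345 ± 0.0896 for METRN (SD, n = 3). Over a shorter protein-coding METRN transcript of the annotation, of 915 nt, the METRN level came to 1.25 ± 0.325 CPM per kb, still lower in every control sample than METRNL. By control CPM, 32.1% of tested genes were lower than METRNL and 12.1% lower than METRN. Per kb these shares were 39.8% and 8.35% of the 13300 genes with a length. The 8.35% rests on the METRN transcript of 3322 nt and was not worked out for the shorter one. The METRNL count was 12.0, 7.53 and 5.57 times the METRN count in shControl, 13.7, 9.03 and 9.10 times in shASXL2-2, and 14.98, 11.4 and 17.0 times in shASXL2-3. This count ratio does not depend on library size, but its numerator is the count on which METRNL was chosen, so its order against shControl supports nothing. The groups overlapped, with shControl number 1 (12.0) above 3 of the 6 knockdown samples.

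The sample numbers bore on METRNL as well. Its level in the sample numbered 1 was 1.29, 1.49 and 1.61 times the mean of numbers 13 and 25 in shControl, shASXL2-2 and shASXL2-3. The log2 difference was 0.56 (SE 0.09, 95% interval 0.35 to 0.76, adjusted p = 0.00135, edgeR's quasi-likelihood test with Benjamini-Hochberg adjustment, in a fit with group and number), and it passed the test. In that contrast 46.3% of all tested genes were called, 24.1% as higher in number 1, and number 1 was highest in each group for 23.1% of genes, so METRNL shared this pattern with a large part of the transcriptome. Exchanging samples within groups, the exact two-sided permutation p was 0.0370, the smallest that 27 arrangements allow, and over all 84 it was 0.167. Without the group term the difference of 0.58 (SE 0.28) did not pass (adjusted p = 0.120, edgeR with Benjamini-Hochberg adjustment). METRNL was chosen in a fit with the same terms of group and number. That choice favours genes with a small spread there, so the pass is not independent of it.

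No such difference was detectable for METRN. Its number 1 sample stood at 0.689, 0.989 and 1.51 times the mean of the other two in shControl, shASXL2-2 and shASXL2-3, low in one group and high in another. The log2 difference was 0.04 (95% interval -0.47 to 0.54, adjusted p = 0.910, edgeR's quasi-likelihood test with Benjamini-Hochberg adjustment). Within groups the exact permutation p was 0.926.

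Transcript length moved with the fold changes over all genes. With the block, the median log2 fold change of both shRNAs against shControl was 0.13 in the shortest and -0.18 in the longest of 20 equal classes of 665 genes, and 0.07 and 0.01 in the classes that held METRNL and METRN. The METRN class rests on its transcript of 3322 nt. Its shorter transcript of 915 nt would fall in the class of 808 to 1125 nt, with a median of 0.13. With the length and GC content of transcripts corrected for in each sample, together with the block, METRNL was at 0.61, 1.02 and 0.82 for shASXL2-2, shASXL2-3 and both, and at 0.41 for the difference between the shRNAs (adjusted p = 0.122, edgeR with Benjamini-Hochberg adjustment). The shASXL2-2 value then had an adjusted p of 0.0722 in the same edgeR test, outside the limit by which METRNL was chosen. METRN was at 0.27, 0.26 and 0.27, corrected by the length of the 3322 nt transcript. With the same correction the difference of number 1 from 13 and 25 was 0.43 for METRNL (adjusted p = 0.00184) and -0.09 for METRN (adjusted p = 0.763).

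**Figure D3:**
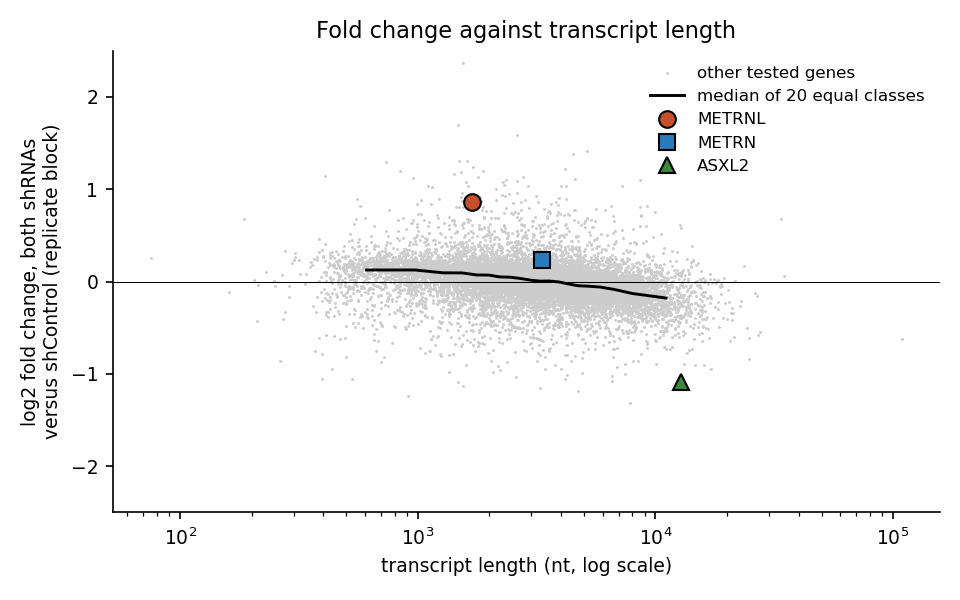
Log2 fold change of both shRNAs against shControl (fit with the sample number as a block) against transcript length on a log axis, for the 13300 tested genes with a length; the line joins the medians of 20 equal length classes, which run from 0.13 to -0.18. METRNL lies at 0.86, METRN at 0.24 and the targeted gene ASXL2 at -1.09.

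The genes next to METRNL were read in the fit with the block, where 1.1% of all tested genes were called for both shRNAs. All 5 nearest tested genes lie on the side of lower coordinates, since no tested gene lies between METRNL and the end of chromosome 17. Their log2 fold changes for both shRNAs ran from -0.11 to 0.14; none was called, which at that share says little of the locus. The closest, B3GNTL1, a glycosyltransferase gene 27800 bases away, was at 44.9 ± 2.71, 49.7 ± 2.62 and 49.4 ± 2.08 CPM in shControl, shASXL2-2 and shASXL2-3 (SD, n = 3), with a log2 fold change of 0.14 (adjusted p = 0.195, edgeR with the block). TBCD, a tubulin folding cofactor, was at -0.11, and FN3K and FN3KRP, kinases that act on glycated proteins, were at 0.12 and 0.13. Around METRN the 10 nearest tested genes ran from -0.08 to 0.37 and none was called. FAM173A, 926 bases beyond METRN, was at 0.09. CCDC78 had the highest value at 0.37, from a level of only 1.05 ± 0.249 CPM in control (adjusted p = 0.350), followed by HAGHL at 0.33 (adjusted p = 0.132, same fit).

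**Figure D4:**
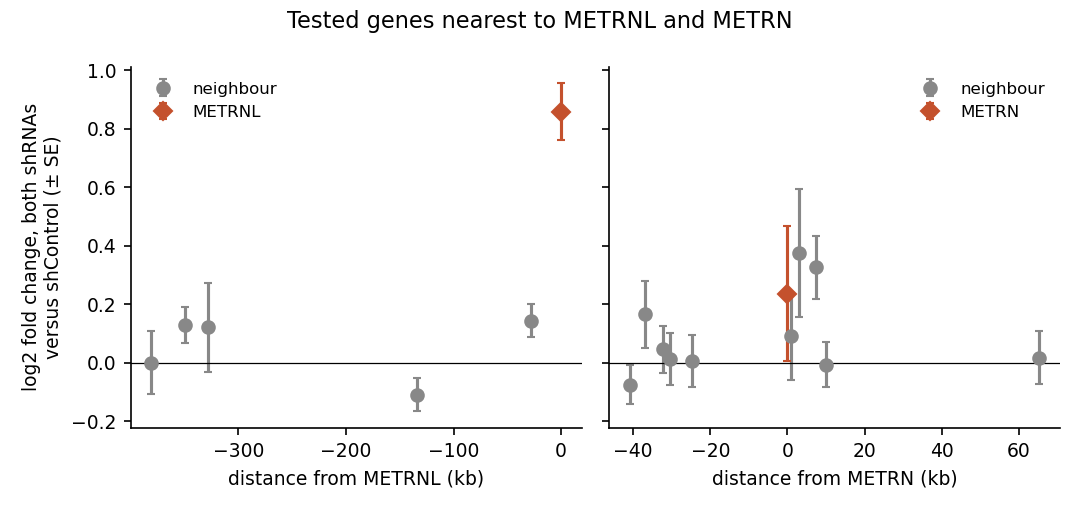
Log2 fold change of both shRNAs against shControl with its standard error (fit with the sample number as a block) for METRNL (left) and METRN (right) at 0 and the tested genes nearest to each, by their distance in kb. METRNL stands at 0.86 with its 5 neighbours between -0.11 and 0.14, and METRN at 0.24 lies within the range of its 10 neighbours, -0.08 to 0.37. METRNL was chosen for its difference from shControl and the other genes were not, so its place above its neighbours supports nothing.

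The genes whose log2 CPM ran most like METRNL over the 9 samples were TPI1 (Pearson r = 0.961), MPZL2 (0.960), PGAM1 (0.955), BET1 (0.953) and PCGF1 (0.951). With the mean of each number subtracted they were ADRA2C (0.983), PGAM1 (0.982), LOC100862671 (0.978), TPI1 (0.970) and C1orf35 (0.970), so PGAM1 and TPI1 stood in both lists. METRN had r = 0.394 with METRNL (rank 3771 from the highest), or 0.408 with number means subtracted (rank 3960). ASXL2 had -0.827 and -0.915 (ranks 13966 and 14100). METRNL was chosen for its difference between ASXL2 knockdown and control, so its r with ASXL2 supports nothing further. Nearest to METRN were TMEM189-UBE2V1 (0.918) and UBE2V1 (0.897), which share sequence, with PMM1 (0.913), SNX6 (0.906) and GNA14 (0.898). With number means subtracted METRN ran most like PMM1 (0.965), MCAM (0.961), CAPZA2 (0.960), LOC101927045 (0.957) and B3GAT2 (0.951). All r values are descriptions, and those of the most similar genes were chosen as the highest of 14199. The points share the 3 groups and the 3 numbers, and METRN levels rest on 29 to 50 counts.

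The genes of 5 lists related to METRNL and METRN were read next, 91 genes of which 56 were tested. Without the block edgeR called none. With it, 3 of the 56 (5.36%) were called for both shRNAs against 1.1% of all tested genes, namely JAK1, UCP2 and RETN. The lists were chosen with earlier results of these data known, so the share supports nothing further. No more is read from so few genes. The lists' median log2 fold changes for both shRNAs were -0.13 for KIT receptor and signalling, 0.05 for type 2 cytokines and alternative macrophage activation, 0.03 for PGC-1, PPAR, AMPK and thermogenic genes, 0.17 for myokines and adipokines and 0.07 for neurotrophic factors, against 0.01 for all genes. These medians were not corrected for transcript length, with which class medians ran from 0.13 to -0.18 in the same fit. What length contributes to them was not tested.

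None of the 15 genes of KIT receptor and signalling was called in the 4 comparisons of groups, where at most 1.1% of all tested genes were, so the count says nothing particular of this list. KIT was abundant, at 356 ± 74.0, 319 ± 80.2 and 324 ± 22.8 CPM in shControl, shASXL2-2 and shASXL2-3 (SD, n = 3), and its log2 fold change with both shRNAs was -0.14 (adjusted p = 0.371, edgeR with the block). KITLG, which encodes the established KIT ligand, was at 3.37 ± 0.753, 3.70 ± 0.572 and 2.55 ± 0.727 CPM. CBL, a ubiquitin ligase that acts on activated KIT, had the lowest value of the list at -0.29 (adjusted p = 0.0809), and GAB2, an adaptor, the highest at 0.13. The summed level of the list was 2650 to 2944 CPM in shControl, 2421 to 2679 CPM in shASXL2-2 and 2502 to 2645 CPM in shASXL2-3.

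Of the type 2 cytokine genes 7 of 14 were tested. IL4 had at most 1 count in a sample and IL13 none, while their receptor chain IL4R was at 60.5 ± 7.003 CPM in shControl, with a log2 fold change of -0.12. JAK1, a kinase of that receptor and of many other cytokine receptors, was at 146 ± 11.3, 121 ± 4.26 and 112 ± 4.82 CPM in shControl, shASXL2-2 and shASXL2-3. In the fit with the block it fell with shASXL2-3 (-0.38 on the log2 scale, adjusted p = 0.0409) and with both shRNAs (-0.33, adjusted p = 0.0379), while shASXL2-2 alone did not pass (-0.27, adjusted p = 0.0968, edgeR). Once length and GC were corrected for, it passed neither with shASXL2-3 (-0.33, adjusted p = 0.0584) nor with both shRNAs (-0.26, adjusted p = 0.0876, edgeR).

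Of the PGC-1, PPAR, AMPK and thermogenic genes 13 of 21 were tested. PPARGC1A, which encodes PGC-1 alpha, had at most 4 counts in a sample, UCP1 at most 5 and PPARG none. UCP2, a mitochondrial carrier abundant in leukocytes, was at 126 ± 20.04, 164 ± 10.3 and 179 ± 12.7 CPM in shControl, shASXL2-2 and shASXL2-3. In the fit with the block it rose with shASXL2-3 (0.52, adjusted p = 0.0308) and with both shRNAs (0.46, adjusted p = 0.0329), while shASXL2-2 alone did not pass (0.39, adjusted p = 0.0738, edgeR). With the length and GC correction it was at 0.46 for shASXL2-3 (adjusted p = 0.0525) and 0.40 for both (adjusted p = 0.0596, edgeR), and neither passed. PPARA was at -0.35 (adjusted p = 0.0640) and PPARD at 0.53 (adjusted p = 0.380).

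Among myokines and adipokines 14 of 26 genes were tested. RETN, which encodes the secreted protein resistin, was at 7.11 ± 1.33, 8.24 ± 1.25 and 12.6 ± 3.03 CPM in shControl, shASXL2-2 and shASXL2-3, and in the fit with the block it rose (0.82 for shASXL2-3, adjusted p = 0.0238, and 0.52 for both, adjusted p = 0.0458, edgeR). The value for shASXL2-3 still passed with the length and GC correction (0.78, adjusted p = 0.0460) but in only 2 of 9 fits that left out 1 sample with the block (adjusted p up to 0.11), and the value for both did not pass with the correction (0.48, adjusted p = 0.103). With shASXL2-2 alone RETN was at 0.22 and did not pass. SPARC, a matrix protein, was at -0.29 (adjusted p = 0.105), and ANGPTL4 had the highest value at 0.81 (adjusted p = 0.283). IL6, OSTN, FGF21 and RARRES2 had no count in any sample.

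Of 15 neurotrophic genes 7 were tested, and none was called against shControl. With the block at most 1.1% of all tested genes were called there, so the count says nothing particular of this list. MDK, a heparin-binding growth factor, was at 35.2 ± 2.996, 46.9 ± 7.86 and 29.3 ± 2.41 CPM in shControl, shASXL2-2 and shASXL2-3. It was lower in shASXL2-3 than in shASXL2-2 (log2 difference -0.68, adjusted p = 0.0363, edgeR with the block), a contrast in which 0.106% of all tested genes were called. METRNL had the opposite order, being higher in shASXL2-3, in a contrast it did not pass. GFAP, the astrocyte gene to which meteorin has been linked, had at most 4 counts in a sample, and NTF3, NTF4 and PTN had none.

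**Figure D5:**
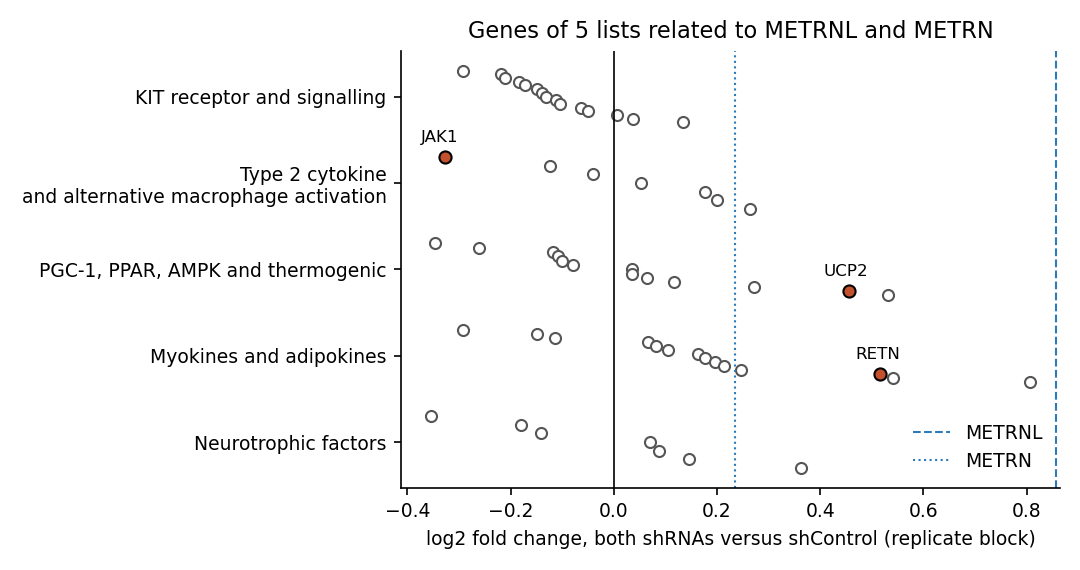
Log2 fold change of both shRNAs against shControl (fit with the sample number as a block) for the 56 tested genes of 5 lists, a point per gene; filled points are past an adjusted p of 0.05, and the dashed and dotted lines mark METRNL (0.86) and METRN (0.24). JAK1, UCP2 and RETN are called, and the highest of the listed genes is ANGPTL4 at 0.81, which is not called.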

How the data were processed

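Poly(A) RNA-seq of SKNO-1 cells was analysed in 9 samples, 3 each of shControl, shASXL2-2 and shASXL2-3, grouped by their titles. The authors deposited whole-number counts per RefSeq transcript on hg19, not normalized, in 48104 rows per sample. The submitters' processing notes name STAR, featureCounts and DESeq2 without roles or settings, while the study's methods describe Cuffdiff for RNA-seq; the study describes libraries that do not keep strand, and the counting settings are not given in the sources used here. Each of 25680 symbols was represented by its row with the highest total (9509 had several rows), so a shift between isoforms can move a value.

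Genes were filtered with filterByExpr (minimum count 10, minimum total 15; 14199 kept), scaled by TMM and compared by quasi-likelihood tests (edgeR 4.0.16, R 4.3.3) in 1 fit over all samples and Benjamini-Hochberg adjustment over all tested genes, with a threshold of 0.05. The study calls the replicates biological without saying how the cultures were separated; p values measure the spread between these samples. Within groups, counts differed by more than sampling noise (chi-square per degree of freedom 17.6 to 128). The shared numbers were taken as pairing samples: deviations of log2 CPM from group means correlated at 0.398 to 0.731 in all 9 same-number pairs (mean 0.598). The 18 others ran from -0.62 to 0.31 (mean -0.291). Deviations within a group sum to 0, so the negative mean of the others follows from the positive one and is not separate evidence. Blocked values are therefore also given for METRNL and METRN, and list genes and neighbours are given with the block. Fits were tested on simulated counts before use. Alternatives were DESeq2 1.42.0, its size factors in edgeR, no filter, the first-listed row, leaving out each sample, and a length and GC spline offset. Exact permutation tests used scipy 1.17.1.

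Named genes were METRNL, METRN, ASXL2, members of 5 lists, cell type markers, the 5 nearest tested genes on each side and the 5 most similar genes. The members and lists were chosen with earlier results of these data known. Promoters and gene structures came from the GRCh37 genome and its GENCODE annotation.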

Additional observations from a re-analysis of the deposited data

How the results depend on the processing

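METRNL was above shControl in all 28 alternatives, at 0.45 to 0.81 for shASXL2-2, 0.81 to 1.28 for shASXL2-3 and 0.74 to 1.01 for both (log2). The same ranges came from leaving out 1 sample. METRNL was chosen for its difference from shControl, so the shared direction supports nothing further. Its adjusted p was past the threshold in 6, 12 and 11 of the 28 alternatives, in the same order. The difference between the shRNAs ran from 0.15 to 0.63 and never passed (adjusted p 0.0504 to 1); the difference of number 1 ran from 0.43 to 0.64 in 15 alternatives (0.48 to 0.64 leaving out 1 sample) and failed only without the group term (0.58, adjusted p = 0.120, edgeR).

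METRN passed in no alternative. It turned to -0.18 for shASXL2-3 and to -0.05 for both shRNAs without the samples numbered 1, and to -0.09 for the number with the length and GC correction. Leaving out 1 sample it ran from -0.01 to 0.50 for shASXL2-2, -0.08 to 0.49 for shASXL2-3, -0.03 to 0.48 for both, -0.33 to 0.23 between the shRNAs and -0.26 to 0.29 for the number.

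The replicate block, which rests on the pairing by number, changed the calls. In the order shASXL2-2, shASXL2-3, both and shASXL2-3 against shASXL2-2, the 0 genes called without it became 40, 59, 156 and 15 with it, 22, 26, 56 and 11 with DESeq2, and 3, 24, 21 and 8 with the length and GC correction and the block. Chosen after seeing the data, DESeq2 with the block gave 369, 474, 629 and 155, the block on genes with a length 39, 49, 72 and 12, and DESeq2 size factors with the block 40, 55, 134 and 11. Leaving out 1 sample, with or without the block, gave 0 to 1604, 0 to 368, 0 to 1755 and 0 to 257; the highest counts for shASXL2-2, shASXL2-3 and both came without shASXL2-3 number 1 and the last without shASXL2-3 number 13, so these libraries decide how many genes are called. Of 9 fits that left out 1 sample with the block, METRNL stayed within the limit by which it was chosen in 2 for shASXL2-2 (those without shASXL2-3 number 1 or number 13) and in 6 for shASXL2-3. JAK1 passed in 2, UCP2 in 3 and RETN in 1 for both shRNAs; for shASXL2-3 they passed in 1, 2 and 2, and MDK in 4 between the shRNAs. The cause was not tested. The low METRN counts, 29 to 50 per sample, limit any statement on it.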
